A study of Mus musculus with 4 samples.

Results

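Distal regions of open chromatin that were listed in Irx5KO hair follicle stem cells (HFSC) and met no WT peak numbered 7843, of 486180 peaks in the whole Irx5KO list (1.61%). The assay was ATAC-seq on HFSC of mice: Tn5 transposase inserts sequencing adapters into DNA that is free of nucleosomes. The cells were sorted as Ly-6A/E-, CD34+ and CD45f+, a marker whose protein the labels do not explain. Cells of the genotype labelled Irx5KO (2 samples) were set against cells labelled WT (2 samples); the labels describe neither the Irx5 allele nor the age or sex of the mice. Each genotype has 1 deposited peak list that pools both samples, so no spread between samples exists, no test between genotypes was possible, and library preparation and genotype cannot be told apart. The intervals in parentheses are 95% Wilson intervals, which cover counting error only.

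The regions were chosen by their values in these lists. A region had to lie on chromosomes 1 to 19, have a score at or above the median of the Irx5KO list (209), share no base with any peak of the WT list, and have its midpoint over 1000 bp from both ends of every protein-coding gene. Of 441022 Irx5KO peaks on these chromosomes, 99454 (22.6%) shared no base with a WT peak. Of those, 7987 reached the median score, and 144 (1.80%) were then left out because they lay at a gene end. Among the 210520 high-score distal peaks of the Irx5KO list, the 7843 Irx5KO-only regions made up 3.73%. The same rule applied to the WT list (median score 197) gave 10584 WT-only regions of 218113 (4.85%), and these served as the comparison set. Because the score, the overlap and the gene-end distance made the choice, the sizes of the sets are a description and not a finding.

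As background, most cell-type-specific open chromatin lies away from gene starts, in enhancers where transcription factors bind and from where they act on genes that can be far off. HFSC sit in the follicle bulge, are held quiescent in part by BMP signals, and are called into the growth phase by WNT, FGF and SHH signals. IRX5 belongs to the Iroquois homeodomain proteins, which bind DNA and regulate transcription, and the series sets out to study it in DNA damage repair and in HFSC activation. The Irx5 gene itself (chromosome 8, 92357796 to 92361456) had 4 overlapping peaks of any score in Irx5KO and 2 in WT. None of these was an Irx5KO-only region of the kind described here, and without knowledge of the allele they do not check the labels.

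The name given to the regions held only in part. They were high in score by the rule, but clustered just above the limit. Their median score was 253, and 761 (9.70%, 9.07 to 10.4) reached the upper 25% of the Irx5KO list, which starts at a score of 372. Only 90 (1.15%) were in the upper 10% and 11 (0.140%) in the upper 1%. They were also not always isolated from WT signal, as 2658 (33.9%, 32.9 to 35.0) had a WT peak less than 1000 bp away. At the limits of the rule, 127 regions had the lowest score taken, 209, and 105 otherwise equal peaks had 208 and stayed out. The region nearest to a gene end was 1041 bp from it, and the nearest one left out was at 995 bp. Of the distal high-score Irx5KO peaks left out for touching a WT peak, 57 shared less than 50 bp with it.

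A few of the regions overlap windows around annotated gene starts, since genes have inner transcript starts and the rule named no non-coding genes. Sequence from RefSeq (GRCm38.p6, the assembly of mm10) was at hand only for 300 bp windows from 250 bp before to 50 bp after a start, and 16 Irx5KO-only regions (0.204%, 0.126 to 0.331) overlapped such a window, against 13 WT-only regions (0.123%, 0.0718 to 0.210). Of the high-score distal Irx5KO peaks that overlapped a WT peak, 0.960% did so. The 6 windows below are examples from these few regions and do not stand for the whole set. The start, which follows the first 250 bp of a window, lies inside the region only at Tacc2 and Gm40211 among them. Each is written 5′ to 3′ on the strand of its gene, and capitals mark the bases inside the Irx5KO-only region. Tacc2 encodes a coiled-coil protein of the centrosome and spindle, Dgkh a diacylglycerol kinase and Ghrl the hormone ghrelin, while the other 3 genes are long non-coding RNA genes. Gm15738 and Gm40211 are shown because their windows hold the whole region. Gm39294 is a further example whose window holds most of one. The windows of Gm40662 (243 of 250 bp) and Gm42128 (238 of 250 bp) held more of their regions than that of Gm39294 but are not printed.
Tacc2: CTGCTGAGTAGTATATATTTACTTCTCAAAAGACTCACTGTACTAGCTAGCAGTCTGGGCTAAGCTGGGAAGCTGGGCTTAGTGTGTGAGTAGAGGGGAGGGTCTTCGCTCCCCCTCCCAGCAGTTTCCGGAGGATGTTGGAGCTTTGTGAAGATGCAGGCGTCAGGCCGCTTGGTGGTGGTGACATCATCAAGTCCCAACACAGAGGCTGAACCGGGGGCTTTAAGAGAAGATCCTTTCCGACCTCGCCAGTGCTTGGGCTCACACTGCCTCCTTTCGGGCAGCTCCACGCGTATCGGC
Dgkh: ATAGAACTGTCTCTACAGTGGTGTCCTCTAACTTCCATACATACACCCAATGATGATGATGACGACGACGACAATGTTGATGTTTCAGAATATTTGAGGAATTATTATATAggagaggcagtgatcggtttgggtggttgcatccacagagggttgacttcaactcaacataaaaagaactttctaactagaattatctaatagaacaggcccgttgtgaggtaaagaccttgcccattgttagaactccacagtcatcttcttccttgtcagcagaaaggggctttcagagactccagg
Ghrl: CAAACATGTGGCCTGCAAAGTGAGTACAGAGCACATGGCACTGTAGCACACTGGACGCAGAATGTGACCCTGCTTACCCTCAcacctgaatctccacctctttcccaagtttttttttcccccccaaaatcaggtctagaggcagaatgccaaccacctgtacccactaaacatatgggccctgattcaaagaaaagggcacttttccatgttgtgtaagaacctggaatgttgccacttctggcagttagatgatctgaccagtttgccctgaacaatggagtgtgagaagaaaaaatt
Gm15738: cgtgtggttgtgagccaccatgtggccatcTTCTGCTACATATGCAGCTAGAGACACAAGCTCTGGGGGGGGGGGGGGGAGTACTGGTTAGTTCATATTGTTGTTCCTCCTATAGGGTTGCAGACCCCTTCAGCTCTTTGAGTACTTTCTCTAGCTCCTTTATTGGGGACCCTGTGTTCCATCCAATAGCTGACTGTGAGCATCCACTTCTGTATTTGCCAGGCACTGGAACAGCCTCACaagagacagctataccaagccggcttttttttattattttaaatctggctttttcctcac
Gm40211: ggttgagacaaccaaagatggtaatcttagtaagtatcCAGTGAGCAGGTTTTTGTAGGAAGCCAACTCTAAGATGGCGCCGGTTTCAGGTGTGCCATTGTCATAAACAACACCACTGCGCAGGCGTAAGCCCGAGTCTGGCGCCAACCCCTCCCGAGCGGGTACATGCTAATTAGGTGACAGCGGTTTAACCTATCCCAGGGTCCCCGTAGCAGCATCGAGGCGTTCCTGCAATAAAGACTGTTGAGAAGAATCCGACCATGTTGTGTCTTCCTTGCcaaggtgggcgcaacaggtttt
Gm39294: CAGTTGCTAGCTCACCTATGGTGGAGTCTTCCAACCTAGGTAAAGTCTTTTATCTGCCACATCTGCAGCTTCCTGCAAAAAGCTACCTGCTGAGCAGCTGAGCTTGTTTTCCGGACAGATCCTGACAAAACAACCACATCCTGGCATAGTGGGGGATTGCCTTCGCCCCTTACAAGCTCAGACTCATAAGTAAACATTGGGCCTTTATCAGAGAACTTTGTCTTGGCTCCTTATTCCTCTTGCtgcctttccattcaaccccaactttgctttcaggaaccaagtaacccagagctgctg

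The Tacc2 window (chr7:130692368-130692667, plus strand) lay wholly within a region of 870 bp (chr7:130691871-130692740, score 405), deep inside the gene at 75.4 kb from its nearest end. It held 11 CpG dinucleotides and a GC content of 55.3%, against medians of 7 and 52.7% over all 32851 RefSeq windows. All the other printed windows were under that GC median. They had 42% (Dgkh), 46.7% (Ghrl), 48.3% (Gm15738), 51.7% (Gm40211) and 48% (Gm39294), with 5, 1, 2, 14 and 2 CpG dinucleotides. The Dgkh window (chr14:78644402-78644701, minus strand) had 111 bp in a region of 700 bp. For Ghrl (chr6:113717643-113717942, minus strand) 82 bp of the window lay in a region of 310 bp. The Gm15738 region was 210 bp long (window chr16:13406501-13406800, minus strand) and the Gm40211 region 240 bp (window chr4:99569299-99569598, minus strand). For Gm39294 (chr9:15431938-15432237, plus strand) 243 bp of the 290 bp region were in the window.

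Motif letters were searched on both strands of these windows, and matches of different motifs may overlap. In the part inside the region, the letters TAATTA, a core of many homeodomain proteins, were found at Gm40211, in a window with 14 CpG dinucleotides; 5.29% of all RefSeq windows hold them. ACATGT, a sequence bound by Iroquois proteins, was found at Ghrl and, among windows not printed, inside the region at Gm33610. Of all windows 5.28% hold ACATGT. The AP-1 letters TGANTCA were also found inside the region at Gm33610, with a background of 7.81%. AACAAT (SOX) was found at Gm15738, with a background of 10.7%. The RUNX letters TGTGGT were found at Gm39294, with a background of 16.8%. A GATA sequence, AGATAA, was found there too, and inside the region at Gm40662, which is not printed, against 11.2% of all windows. None of the searched motifs was found inside the region at Gm42128, also not printed. At Tacc2 none of the searched motifs was found in the window, which included TGANTCA for AP-1 (7.81% of all windows), GGAATG for TEAD (14.7%), ATCAAAG for TCF/LEF (3.73%) and GGGCGGGG for KLF/SP (17.6%). The shares over all windows are for the full 300 bp, longer than the part inside the region at every printed window but Tacc2. Such matches are a description of letters in the window, not of bound sites.

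The region with the sixth highest score (chr5:114851971-114852230, 260 bp, score 1298), 1.55 kb from 4930519G04Rik, covered the mature sequence of miR-6240 and was the only one to meet a miRNA gene. It is printed below with its seed, bases 2 to 8, in capitals, since it lies inside a top-scored region (RefSeq, GRCm38.p6, chr5:114851973-114851998, plus strand). The nearest WT peak was 0.280 kb away.
mmu-miR-6240: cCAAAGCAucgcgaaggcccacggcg

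Regions seen in Irx5KO only were narrow. Their median width was 270 bp (quartiles 220 and 350 bp), and 846 (10.8%) had 200 bp, the smallest width in the list. WT-only regions also had a median of 270 bp (230 and 360 bp), whereas Irx5KO peaks of the same score and distance that overlapped a WT peak had a median of 650 bp (410 and 1360 bp). Width and the chance of touching a WT peak are tied, as a broad peak has more bases with which to overlap. Among Irx5KO peaks from 200 to 240 bp wide 29.4% (28.5 to 30.2) were Irx5KO-only, and of those at 600 bp or more 0.141% (0.120 to 0.165) were. The same classes of the WT list had 34.9% (34.1 to 35.8) and 0.234% (0.207 to 0.264). In both genotypes, then, the share fell along the width classes.

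**Figure D1:**
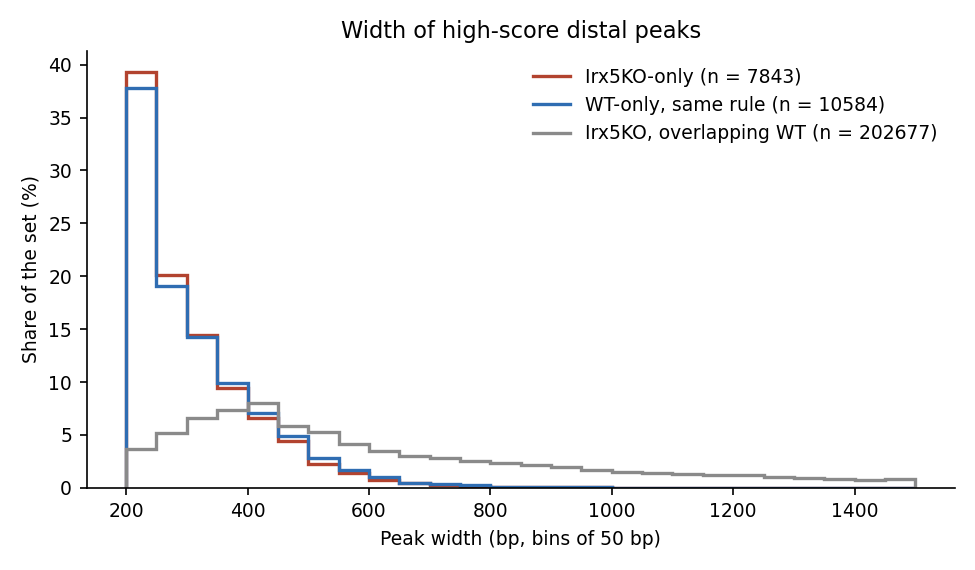
Peak width in bp (bins of 50 bp) against the share of each set, for high-score distal peaks that were Irx5KO-only (n = 7843), WT-only (n = 10584) or Irx5KO peaks with a WT overlap (n = 202677). Both genotype-only curves peak at 200 to 250 bp and lie close together. The curve of overlapping peaks starts lower, at 3.66% from 200 to 250 bp, is broader and runs to the end of the axis.

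Only 4 Irx5KO-only regions reached 1000 bp. The widest had 1450 bp (chr14:11825691-11827140) and lay inside Ptprg, a receptor tyrosine phosphatase gene, 273 kb from its nearest end. The next had 1370 bp (chr15:37175291-37176660) at 56.9 kb from Grhl2, which encodes a grainyhead transcription factor of epithelia. It was followed by regions of 1120 bp, 901 kb from the cadherin gene Cdh9, and of 1040 bp, 63.8 kb from Mef2c, which encodes a MADS-box transcription factor. The fifth in width, 980 bp, lay inside Lhfpl3. All 5 were over 50 kb from a coding-gene end.

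The regions were spread thinly over the genome, at a median gap of 200825 bp between neighbours on a chromosome, against 144780 bp between WT-only regions, of which there were more. Most stood alone. Of the Irx5KO-only regions 5478 (69.8%) had no other such region within 50 kb. A further 861 pairs stood by themselves, and 643 regions (8.20%) lay in 201 runs of 3 or more whose gaps were all under 50 kb. The largest runs held 5 regions, and there were 8 of them. WT-only regions stood alone in 60.8% of cases and formed 31 runs of 5 or more, with up to 7 regions. Across 2413 bins of 1 Mb the Irx5KO-only regions had a median of 3 per bin, a maximum of 11 and 139 empty bins, with a variance 1.23 times the mean. WT-only regions had a median of 4, a maximum of 15, 81 empty bins and a variance 1.35 times the mean.

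The 8 runs of 5 were each near different genes. One spanned 115 kb (chr12:25311291-25426330) with Id2 as the nearest coding gene, which encodes an inhibitor of basic helix-loop-helix factors and is a target of BMP signals. Its 5 regions had scores of 209 to 282, lay 215 to 330 kb from Id2 and 1.31 to 10.2 kb from the nearest WT peak, and no WT-only region stood among them. Another spanned 110.9 kb around Lmcd1, which encodes a LIM domain protein, with 2 regions inside the gene and no WT-only region. The run beyond the upper end of Pcnx, a gene of the pecanex family, spanned 61.8 kb with 5 regions of 280 to 530 bp. In the run at Zmynd8, which encodes a reader of histone marks, 4 of 5 regions had that gene as the nearest, and only 2 peaks between them were shared. Runs near Poldip3 (which reached the blood-group enzyme gene A4galt), D3Ertd751e, Baiap2l1 and Etnk1 completed the 8. Those near Baiap2l1 and Etnk1 also held 3 and 2 WT-only regions, and the other 6 runs held none.

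The 8 fullest bins held 10 or 11 regions. The bin from 9 to 10 Mb of chromosome 1 held 11 Irx5KO-only regions, 6 of them nearest to the syntrophin gene Sntg1, and 7 WT-only regions. The bin from 115 to 116 Mb of chromosome 1 had 10 against 5 WT-only, all 10 nearest to Cntnap5a, a gene of the contactin-associated protein family. On chromosome 10 the bin from 92 to 93 Mb had 10 against 6, with 9 nearest to Nedd1, which encodes a centrosomal protein that recruits gamma-tubulin. The bin from 98 to 99 Mb had 10 against 1, with 6 nearest to the plasma membrane calcium pump gene Atp2b1. On chromosome 14 the bin from 94 to 95 Mb had 10 in each set, and the 10 of Irx5KO were nearest to the protocadherin gene Pcdh9. The bin from 71 to 72 Mb of chromosome 16 had 10 against 3, with 9 nearest to Robo1, which encodes a receptor of axon guidance. Bins of chromosome 5 (136 to 137 Mb, 10 against 3) and chromosome 17 (88 to 89 Mb, 10 against 5) were spread over several genes, with at most 2 nearest to any 1 gene, among them Col26a1, Cux1 and Foxn2.

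The nearest WT peak, of any score, lay at a median of 1870 bp from an Irx5KO-only region (quartiles 630 and 4060 bp). For WT-only regions the nearest Irx5KO peak lay at 1610 bp (500 and 3810 bp). Of the Irx5KO-only regions 368 (4.69%) came within 100 bp of a WT peak, and 404 had none within 10 kb. The most remote one was 47.2 kb from any WT peak and 42.1 kb from any other Irx5KO peak (chr12:75928661-75929150), inside Syne2, which encodes a giant protein of the nuclear envelope. The next, 39.6 kb from WT peaks, lay inside the ubiquitin ligase gene Cul3, but only 1 kb from another Irx5KO peak. The 10 kb on either side of an Irx5KO-only region were covered by Irx5KO peaks to a median of 9.75%, the region itself included, and by WT peaks, which the rule kept off the region, to 8.15%.

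All 19 chromosomes held such regions, from 193 to 633 each. Relative to the high-score distal Irx5KO peaks of a chromosome, the share was lowest on chromosomes 7 (3.17%, 2.89 to 3.49) and 12 (3.18%, 2.86 to 3.53) and highest on chromosome 11 (4.81%, 4.36 to 5.30). Chromosome 10 came next at 4.51% (4.15 to 4.91) and had the highest density, 4.08 per Mb. WT-only shares were higher on every one of the 19 chromosomes. The number of Irx5KO-only over WT-only regions was lowest on chromosome 12 (0.651) and highest on chromosome 10 (0.872).

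**Figure D2:**
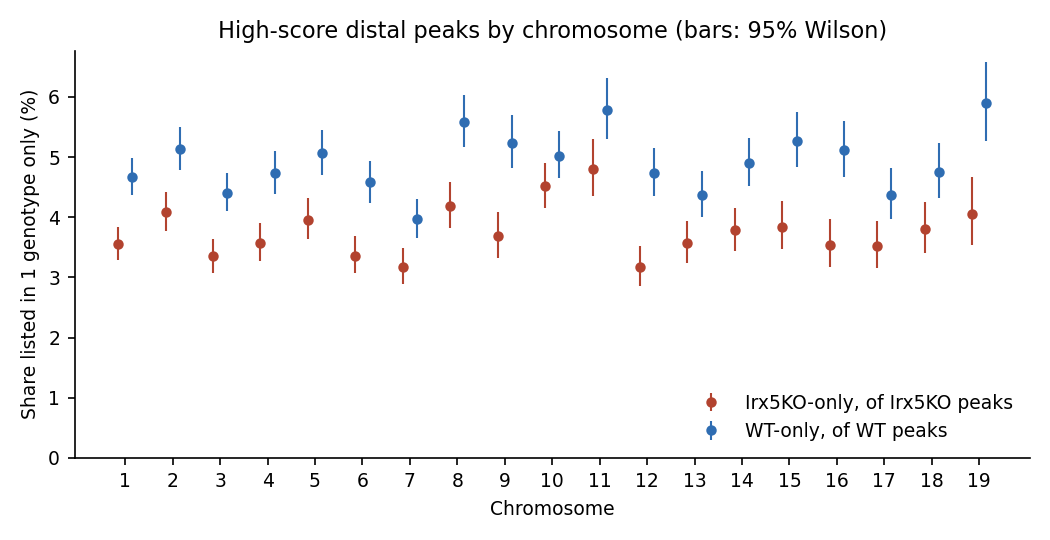
Share of high-score distal peaks that were Irx5KO-only (left point of each pair) or WT-only (right point) on chromosomes 1 to 19, in percent with 95% Wilson intervals. The Irx5KO points run from 3.17% to 4.81% and lie under the WT points throughout.

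The number of Irx5KO-only over WT-only regions changed with the score limit. At the median, Irx5KO-only regions were 0.741 times as many as WT-only regions. In the upper 25% of each list there were 761 Irx5KO-only and 730 WT-only regions, a ratio of 1.04 whose interval (0.942 to 1.15) includes 1. Higher still, 90 Irx5KO-only regions reached the upper 10% of their list (1.15% of the set, 0.935 to 1.41) and 53 WT-only regions that of theirs (0.501%, 0.383 to 0.654). The upper 1% held 11 Irx5KO-only and 8 WT-only regions. The rule used this score, so these counts are a description and not a test between genotypes.

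Gene bodies held a larger share of the Irx5KO-only regions than of the WT-only regions or the overlapping Irx5KO peaks. The midpoint of 2828 Irx5KO-only regions (36.1%, 35.0 to 37.1) lay inside a protein-coding gene, against 3477 WT-only regions (32.9%, 32.0 to 33.8). Of Irx5KO peaks overlapping a WT peak, 27.6% (27.4 to 27.8) did. Put the other way, 4.81% (4.64 to 4.99) of high-score distal Irx5KO peaks inside genes were Irx5KO-only and 3.31% (3.22 to 3.396) of those outside were. The WT-only shares were 5.80% (5.61 to 5.98) inside genes and 4.50% (4.39 to 4.60) outside. Over 4 parts of about equal size of the Irx5KO-only set by score, the share inside genes was 36.4%, 34.6%, 35.6% and 37.7% from low to high. The same parts of the WT-only set had 31.3%, 31.9%, 32.9% and 35.3%. The intervals of Irx5KO-only and WT-only regions overlapped in every part but the lowest. Irx5KO-only distal peaks below the median score, which the rule left out, were inside genes in 40.0% of 87064 cases (39.7 to 40.4), against 34.8% of 108002 WT-only ones (34.5 to 35.1).

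Width classes gave the same order. Within each of the 5 width classes the Irx5KO-only share inside genes was above the WT-only share. From 200 to 240 bp the shares were 36.0% (34.3 to 37.7) and 34.4% (33.0 to 35.9), and from 400 to 590 bp they were 37.7% (34.9 to 40.5) and 31.8% (29.7 to 34.1). The intervals overlapped in 3 of the 5 classes, those from 200 to 240, from 250 to 290 and of 600 bp or more. Overlapping Irx5KO peaks of these widths were inside genes in 32.3% and 30.3% of cases.

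**Figure D3:**
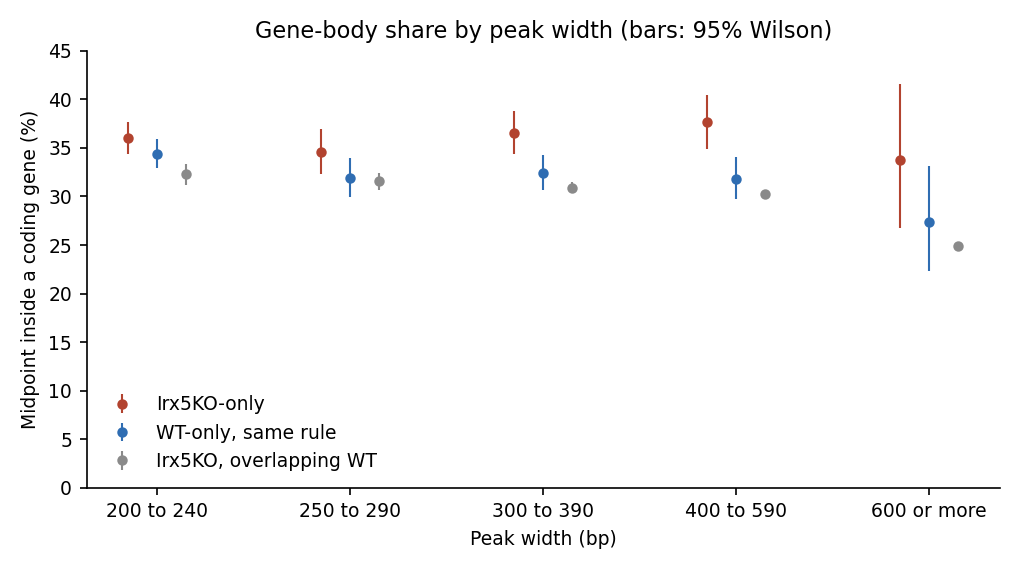
Share of midpoints inside a protein-coding gene, in percent with 95% Wilson intervals, by peak width in bp, for Irx5KO-only, WT-only and overlapping Irx5KO peaks (left to right in each class). The Irx5KO-only points stay between 33.8% and 37.7%, above both other sets in each class, and the overlapping peaks decline to 24.9% at 600 bp or more.

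Inside genes the regions lay mostly in long genes. They fell in 2052 genes with a median length of 99.7 kb, against 17.6 kb over all 20560 autosomal coding genes. A longer gene has more bases in which a region can lie, and this median was not taken for WT-only regions or overlapping peaks. Genes over 500 kb, 216 in number, held 532 regions, or 18.8% of the Irx5KO-only regions inside genes. For WT-only regions the figure was 23.0%, and for overlapping Irx5KO peaks 23.2%. The most regions inside 1 gene were 9 in Cntnap2, against 4 WT-only, a gene of 2241 kb for a neuronal adhesion protein. The contactin gene Cntn4 had 8 against 6 WT-only, the alpha-catenin gene Ctnna3 had 8 against 9, and Lrmda, a gene of melanocyte differentiation, had 8 against 1.

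The median distance from an Irx5KO-only midpoint to the nearest coding-gene end was 51236 bp (quartiles 14296 and 176600 bp), against 65490 bp for WT-only regions and 68524 bp for overlapping Irx5KO peaks. Far from genes the Irx5KO-only share thinned out. Of high-score distal Irx5KO peaks at 1 to 2 kb from a gene end 4.69% (4.06 to 5.43) were Irx5KO-only, at 10 to 50 kb 3.998% (3.84 to 4.16), at 100 to 500 kb 3.35% (3.21 to 3.49) and over 500 kb 2.60% (2.42 to 2.81). The WT-only share changed less along the same classes, with 5.55% (4.85 to 6.35), 4.81% (4.64 to 4.98), 4.84% (4.68 to 5.01) and 4.42% (4.19 to 4.67). Among peaks of up to 300 bp the contrast remained. There the Irx5KO-only share was 22.3% (18.7 to 26.3) at 1 to 2 kb and 16.2% (14.8 to 17.6) over 500 kb, against WT-only shares of 23.7% (20.2 to 27.6) and 23.1% (21.6 to 24.6). In the upper 25% by score the Irx5KO-only share was 0.902% (0.528 to 1.54) and 0.434% (0.333 to 0.566) in these classes, and the WT-only share 0.858% (0.491 to 1.49) and 0.610% (0.492 to 0.757).

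**Figure D4:**
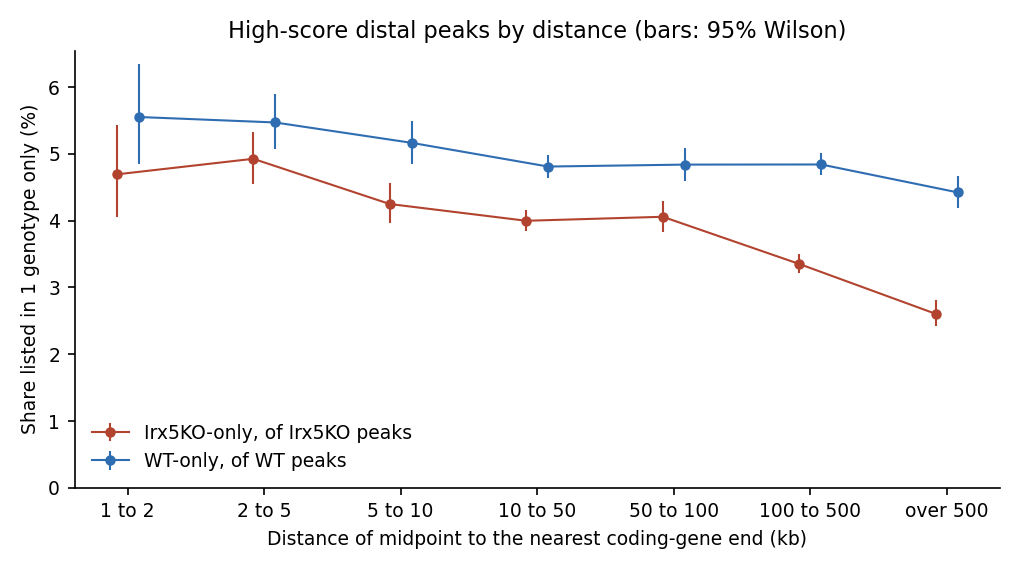
Share of high-score distal peaks that were Irx5KO-only or WT-only, in percent with 95% Wilson intervals, by distance in kb from the midpoint to the nearest coding-gene end. The Irx5KO line goes down to 2.60% over 500 kb, while the WT line ends at 4.42%.

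Each region was assigned to the coding gene with the closest end if that end was within 50 kb. This placed 3888 regions (49.6%) at 3291 genes, 16.0% of the 20560 autosomal coding genes. Of these genes 2774 had 1 region, 452 had 2, 53 had 3, 10 had 4 and only 2 had more. WT-only regions were placed at 3853 genes. Genes with both kinds numbered 1108, which is 33.7% of the genes with an Irx5KO-only region and 28.8% of those with a WT-only region.

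Ppargc1a had the most assigned regions. It encodes PGC-1alpha, a coactivator of mitochondrial biogenesis, and spans 661.6 kb of chromosome 5 (51454249 to 52115853). With those deep in its body included, 10 Irx5KO-only regions stood in or beside it, 7 of them inside, with widths of 210 to 480 bp and scores of 223 to 506. The 6 assigned within 50 kb of a gene end met no WT-only region there, and 3 WT-only regions lay inside the gene. Toward the upper end of the gene 3 inner regions and 1 outer region followed each other at chr5:52078761-52079020 (score 296), chr5:52091711-52091940 (506), chr5:52108921-52109190 (464) and chr5:52122421-52122700 (346). Their nearest WT peaks were 11.6, 21.1, 3.81 and 0.230 kb away. The score of 506 was the highest of the 10.

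Cntnap5a (chromosome 1, 115684737 to 116587323) was second with 5 assigned regions against 0 WT-only, and 8 in or beside it in all. Inside the gene there were 5 Irx5KO-only regions against 4 WT-only. The 8 had scores of 216 to 433, and 2 of them lay under 100 bp from a WT peak, at 0.0300 and 0.0600 kb. Of the 10 genes with 4 assigned regions, the first 8 by symbol are given here. Galnt17 (a GalNAc-transferase family gene), Gap43 (a growth cone protein), Lmcd1, Pcnx and Srd5a2 (steroid 5-alpha-reductase, which makes dihydrotestosterone) had no WT-only region assigned within 50 kb, though 1 lay deep inside Galnt17. Edil3, for an extracellular matrix protein that binds integrins, had 1 assigned WT-only region. Inside its body it held 3 Irx5KO-only regions against 4 WT-only. Dpyd, for the enzyme that breaks down pyrimidines, had 2 assigned WT-only regions, and inside its body 6 Irx5KO-only against 7 WT-only. Rgs22, for a regulator of G protein signalling, also had 2 assigned, with 4 against 2 inside. The excess at Edil3 and Dpyd was thus not seen over the whole gene body. At Lmcd1 12 high-score distal Irx5KO peaks were assigned, against 5 in WT, and at Ppargc1a 10 against 5. At Pcnx 20 Irx5KO peaks stood against 18 in WT, so its 4 regions were few among many. These counts rest on regions of moderate score: in the upper 25% of the list 7 of the 10 genes had 0 regions left, while Ppargc1a had 2 and Cntnap5a and Rgs22 1 each. With WT peaks kept at least 500 bp away, Pcnx had 1 region, Lmcd1 and Rgs22 2 each and Cntnap5a 3.

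The largest deficits were at these 5 genes, the last being the first by symbol of 11 genes with the same deficit. Fam81b had 1 Irx5KO-only region against 6 WT-only, 4921524L21Rik, Nell2 (a secreted protein of neurons) and Plppr5 (a phospholipid phosphatase-related protein) had 0 against 5 each, and 1700016C15Rik had 0 against 4. With 0 or 1 region at most genes, differences of this size single out genes from the ends of a ranking of 20560 and are given as counts without a test.

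The highest-scored region of all lay inside Cd44 (chr2:102829281-102829490, 210 bp, score 3098), 18.2 kb from an end of this gene for a receptor of hyaluronan. The nearest WT peak was 2.80 kb away. The second (chr18:7030081-7030280, 200 bp, score 2376) lay 25.4 kb from Mkx, which encodes the homeodomain protein Mohawk, and only 0.0400 kb from a WT peak. The third and the ninth, with scores of 1729 and 1133, were at 195.9 kb from Chl1 and 146.1 kb from the ends of Sema6d, and so were assigned to no gene. Regions near Camsap2 (1687), a gene for a binder of microtubule minus ends, Trub1 (1298), a pseudouridine synthase gene, and Olfr854 (1267), an olfactory receptor gene, were among the other top scores. So were the region at miR-6240 and those near Ice2 (1151), whose product belongs to the little elongation complex, and Zfp143 (1083), a zinc finger transcription factor gene. Of the first 10, 7 were no wider than 310 bp. Score values were not compared with those of the WT list.

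Other non-coding genes were met by more regions. Long non-coding RNA genes were met by 725 Irx5KO-only regions (9.24%, 8.62 to 9.91), against 915 WT-only (8.65%, 8.13 to 9.20) and 7.93% of overlapping Irx5KO peaks. Pseudogenes were met by 44 (0.561%, 0.418 to 0.752), against 77 WT-only (0.728%, 0.583 to 0.908) and 1.92% of overlapping Irx5KO peaks. The overlapping peaks were wider and so have more bases with which to meet a gene.

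Gene lists of the follicle showed small numbers on both sides. At the 26 genes of HFSC identity 9 of 149 assigned high-score distal Irx5KO peaks were Irx5KO-only (6.04%, 3.21 to 11.1), and 9 of 145 WT peaks were WT-only (6.21%, 3.30 to 11.4). Over all coding genes the shares were 4.19% and 4.99%. Vdr, the vitamin D receptor gene needed for hair cycling, had 2 Irx5KO-only and 0 WT-only regions. Nfatc1, Foxp1 and Tbx1 had 1 and 0, Trp63, Sfrp1 and Klf5 1 and 1, Barx2 1 and 2, while the stem cell receptor gene Lgr5 and Nfib had 0 and 2. The list of anagen activation, WNT and SHH held 8 (5.33%, 2.73 to 10.2) against 15 WT-only (9.55%, 5.88 to 15.2). Rspo2, for a secreted WNT agonist, had 1 region of 580 bp and a score of 1073, the 11th highest of all (chr15:43000261-43000840), and no WT-only region, whereas Fgf10 had 0 against 4.

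The list of BMP and FGF quiescence held 6 regions (6.19%, 2.87 to 12.8) against 5 WT-only (5.68%, 2.45 to 12.6). The type I BMP receptor genes differed, with 2 against 0 at Bmpr1a and 0 against 2 at Bmpr1b. Cdkn1a, which encodes the cell cycle inhibitor p21, had 2 against 0, and the ligand genes Bmp2 and Bmp6 had 1 against 0 each. Genes of DNA repair had fewer Irx5KO-only than WT-only regions. At homologous recombination and Fanconi genes the counts were 2 (1.504%, 0.413 to 5.32), at Rad54b and Exo1, against 9 at 8 genes (6.12%, 3.25 to 11.2). At end joining and break signalling genes they were 3 (3.57%, 1.22 to 9.98), at Prkdc, Polq and Parp1, against 6 (6.38%, 2.96 to 13.2). The intervals of the genotypes overlapped in each of these lists. The Iroquois genes had 2 Irx5KO-only regions of 30 peaks (6.67%, 1.85 to 21.3), at Irx1 and Irx6. They had 3 WT-only of 27 (11.1%, 3.85 to 28.1), at Irx3 and Irx5.

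At AP-1 and stress genes no Irx5KO-only region was found among 33 peaks, which allows a share of up to 9.09% (Wilson upper limit 10.4%), against 7 WT-only of 39 (17.9%, 8.98 to 32.7). The 7 belonged to Jun, Klf4 and Klf6. Housekeeping genes had 2 of 30 (6.67%, 1.85 to 21.3), at Tbp and Ywhaz, against 0 of 28, which allows up to 10.7%.

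Markers of other cell types of skin were counted in the same way. The 11 melanocyte genes had 10 Irx5KO-only regions (12.7%, 7.02 to 21.8) against 4 WT-only (5.48%, 2.15 to 13.3), with 3 against 2 at the growth factor receptor gene Kit, 2 against 0 at the tyrosinase gene Tyr, 1 against 1 at Mitf and Tyrp1, and 1 against 0 at Dct, Sox10 and Ednrb. No Irx5KO-only region was assigned to the other 4 genes of the list. Haematopoietic and immune genes had 8 (10.8%, 5.58 to 19.9), at 5 of 14 genes, against 5 (6.76%, 2.92 to 14.9). Kit stands in this list as well, Itgam had 2 against 1, and Ptprc, which encodes CD45, had 1 against 0. Cd74 had 1 against 0, Itgax 1 against 1 and Adgre1 0 against 1. Endothelial genes had 6 (7.79%, 3.62 to 16.0) against 5 (6.85%, 2.96 to 15.1). Nerve, Schwann and muscle genes had 2 of 26 (7.69%, 2.14 to 24.1) against 0 of 25, which allows up to 12%. These 2 were at Sox10 and Actg2, and the Sox10 region is the one counted in the melanocyte list. Fibroblast and dermal papilla genes had 3 (3.23%, 1.10 to 9.06) against 9 (8.65%, 4.62 to 15.6). The counts were 2 against 0 at Pdgfra, 1 against 2 at Lum, and 0 against 1 at each of Col1a1, Col3a1, Pdgfrb, Vcan, Sox2, Corin and Alpl. Interfollicular and upper follicle genes had 0 of 37, which allows up to 8.11%, against 3 of 44. Intervals overlapped in each of these marker lists, and the part of other cell types in the Irx5KO-only set was not tested.

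**Figure D5:**
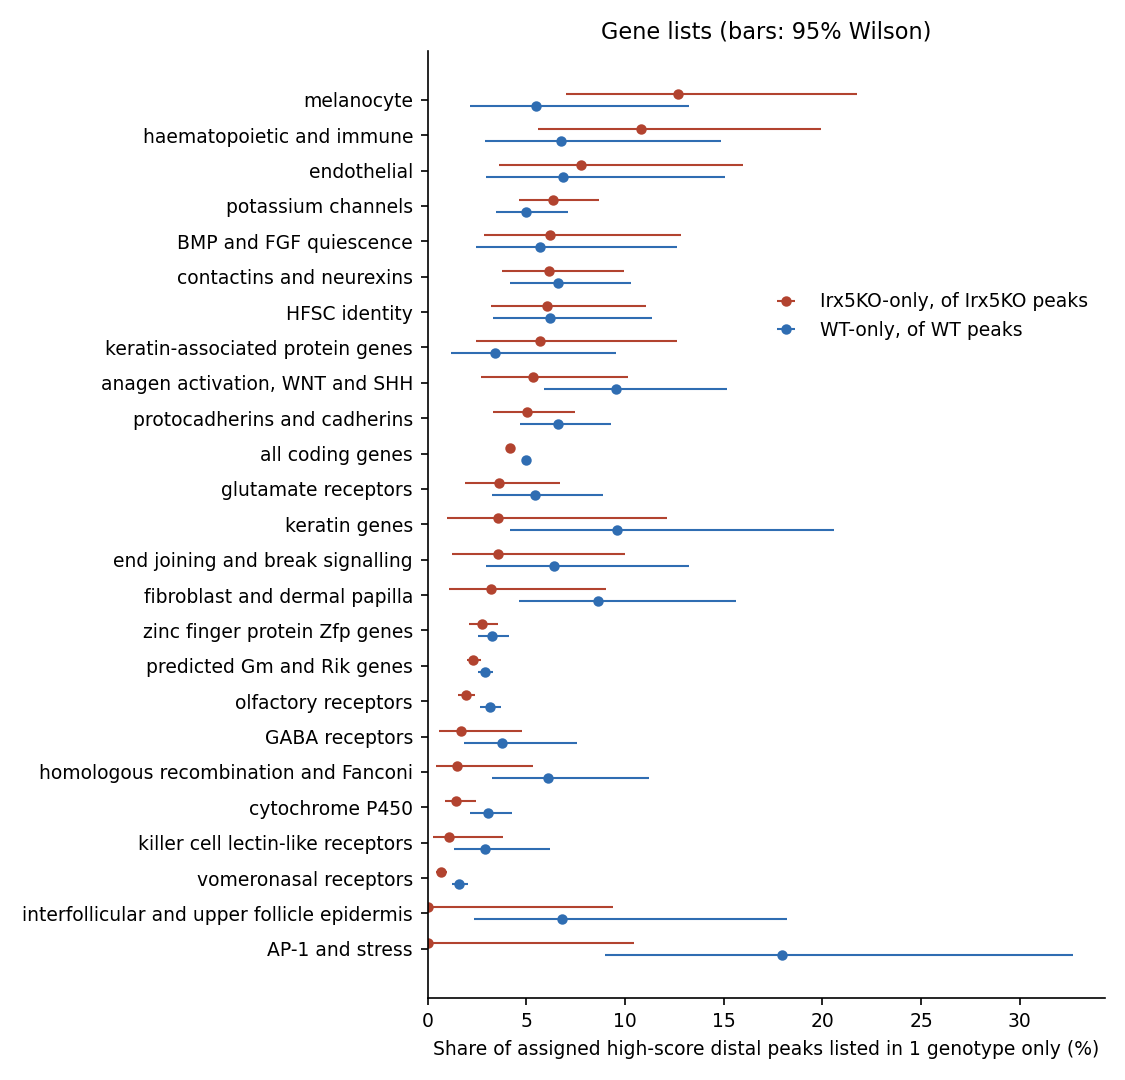
Share of the high-score distal peaks assigned to a gene list that were listed in Irx5KO only (upper point of each pair) or in WT only (lower point), in percent with 95% Wilson intervals, with all coding genes as 1 line. Melanocyte genes stand highest for Irx5KO at 12.7%, AP-1 and stress genes at 0 for Irx5KO and 17.9% for WT, and olfactory and vomeronasal receptors lie to the left in both genotypes.

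Large gene families gave narrower intervals. Olfactory receptor genes had 78 Irx5KO-only regions (1.92%, 1.54 to 2.39) against 134 WT-only (3.15%, 2.66 to 3.71), and vomeronasal receptor genes 23 (0.671%, 0.448 to 1.01) against 58 (1.603%, 1.242 to 2.07). Cytochrome P450 genes had 14 (1.45%, 0.868 to 2.43) against 31 (3.05%, 2.16 to 4.29). In these 3 families both shares lay under those of all coding genes. Potassium channel genes had 36 (6.35%, 4.62 to 8.67) against 28 (4.98%, 3.47 to 7.11), with intervals that overlap. Contactin and neurexin genes had 15 (6.17%, 3.78 to 9.93) against 17 (6.59%, 4.15 to 10.3), and protocadherin and cadherin genes 22 (5.01%, 3.33 to 7.47) against 30 (6.61%, 4.67 to 9.28).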

How the data were processed

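ATAC-seq of sorted mouse HFSC was deposited as 1 peak list per genotype, and per the labels each list belongs to both samples. The submitters' processing notes name ChIPseeker 1.24.0, deepTools 3.4.2, Genrich 0.6, cutadapt 2.9, Bowtie2 and FastQC, and mm10 as the build. Settings, read shift and duplicate handling were not given in the sources used here. The labels state Tn5 treatment for 30 minutes at 37 °C and 80000000 reads for each sample, and the lists hold no mapped depth. The authors' deposited score is a whole number per peak of at least 50 with no stated scale; ranks and limits on it were taken inside each list. Borders lay on a 10 bp grid. Every column with per-sample values was accounted for, with 0 left unused.

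Regions and gene lists were chosen with earlier results of these data known. Overlap meant at least 1 shared bp and positions came from the RefSeq gene table of GRCm38.p6, with 105 autosomal genes left out because they were placed before the first peak. That table has no exons, so exons and introns were not told apart. Sequence content of the peaks was planned but not computed, as no genome was used here. Genes were named by rule: those nearest to the 10 highest-scored and 5 widest regions, the 10 with most regions, the 5 largest excesses each way, up to 4 per gene list, and the fullest runs and bins. Genes outside it, such as those with most regions in the body and those of WT-only counts, were added after their values were seen. A share of 0 allows up to 3 counts of the total. Interval code was tested on simulated data, and overlaps were checked with bedtools 2.31.1. Python 3.11.15, numpy 2.4.6, pandas 2.3.3, scipy 1.17.1 and matplotlib 3.10.9 were used.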

Additional observations from a re-analysis of the deposited data

How the results depend on the processing

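No paired analysis was possible because each list pools both samples of its genotype. In the upper 25% of each list, 761 Irx5KO-only regions remained (0.719% of Irx5KO peaks), with a median width of 300 bp, 39.3% inside genes against 36.6% of WT-only regions, a median gene-end distance of 54457 bp, a neighbour gap of 2164715 bp and a ratio to WT-only regions of 1.04. With the median taken over chromosomes 1 to 19 the share was 3.81%. With no peak of the other list within 500 bp, the share was 2.95%, 38.0% lay inside genes against 35.2% in WT, the distance was 48058 bp, the gap 249620 bp and the ratio 0.781. When only the other list's peaks at or above its median counted as overlap, there were 20098 regions (9.55%), the width was 340 bp, the distance 45257 bp, the gap 78820 bp, the ratio 0.599 and the WT-only share inside genes 28.3%. Beyond 5000 bp from gene ends the share was 3.64%, the distance 63240 bp and the gap 221010 bp. For peaks up to 2000 bp wide the share was 4.46%. Within 200 kb 6064 regions had a gene. 

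After seeing the data 2 more settings were added. For peaks up to 300 bp there were 4901 regions (19.5%), with a width of 230 bp, a gap of 316815 bp and a ratio of 0.774. With the WT list shortened to the Irx5KO length the ratio was 0.833. Of 110 counts at the 10 genes with most regions, 89 stayed within 1.5 times and 21 did not, 10 of them in the upper 25%; the cause of these shifts was not tested. The ratio of 1.04 in the upper 25%, whose interval (0.942 to 1.15) includes 1, is the only ratio above 1 among these settings. The labels state the same 80000000 reads for each sample, but the lists hold no mapped depth, so a region listed in 1 genotype may fall under the calling limit in the other.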

Other observations

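Outside the rule, on the sex chromosomes and unplaced contigs, high-score distal peaks were less often Irx5KO-only than on chromosomes 1 to 19. On the X chromosome 476 of 20882 Irx5KO peaks were Irx5KO-only (2.28%, 2.09 to 2.49), against 808 of 21618 WT peaks listed in WT only (3.74%, 3.49 to 3.999). On the Y chromosome the counts were 35 of 2515 (1.39%, 1.002 to 1.93) in Irx5KO and 99 of 2764 (3.58%, 2.95 to 4.34) in WT. Contigs gave 1 of 625 in Irx5KO and 11 of 732 in WT.

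The interval of chromosome 5 from 75.1 to 75.7 Mb holds Pdgfra, a receptor gene of fibroblasts, and Kit, a receptor gene of melanocytes and mast cells, and was picked after the counts of both genes were seen. It had 6 Irx5KO-only regions against 3 WT-only, beside 30 overlapping peaks in Irx5KO and 29 in WT.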
